A study of Mus musculus with 8 samples.

Results

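The lysosomal hydrolases and lysosomal membrane proteins considered here are 37 genes out of 21080 measured in bone marrow-derived macrophages (BMDMs). They were chosen by name, as the enzymes and the major membrane proteins of the lysosome: 11 proteases and peptidases (the cathepsins, legumain and Tpp1), 12 glycosidases and sulfatases, 7 lipid hydrolases or their activators, 6 membrane proteins and progranulin (Grn). RNA-seq had been made from 8 libraries, 2 in each of 4 groups: WT and Nudt21-cKO BMDMs, each at 0 h and after IFNγ and LPS for 4 h. Nudt21 encodes CFIm25, a subunit of the complex that steers the choice of polyadenylation site. Nudt21-cKO mice carry floxed Nudt21 alleles deleted by LysM-Cre, which acts in myeloid cells. WT mice were LysM-Cre littermates, so that both genotypes carry Cre, and all were on a C57BL/6 background. Bone marrow was cultured with M-CSF, and each library pooled the BMDMs of 2 mice. At 4 h the cells had been primed with IFNγ overnight before LPS. The label field for treatment names the stimulation for the 0 h libraries too, and these were taken as unstimulated from their titles.

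Lysosomal hydrolases are made in the endoplasmic reticulum, sorted to the lysosome, mostly by mannose 6-phosphate tags, and work at its acid pH. They break down proteins, glycans, glycosaminoglycans and lipids that arrive by phagocytosis, endocytosis and autophagy, and the limiting membrane that holds them is coated with heavily glycosylated proteins such as LAMP1 and LAMP2. Macrophages hold large amounts of these enzymes. Loss of a single one can cause a lysosomal storage disease, for example of glycogen (GAA), gangliosides (HEXA, GM2A), glycosaminoglycans (IDUA, IDS, NAGLU, GUSB, GALNS) or cholesteryl esters (LIPA), and loss of PPT1, TPP1, CLN3, CTSD or GRN can cause a neuronal ceroid lipofuscinosis. Many of the genes are under the control of TFEB and its relatives TFE3 and MITF, which bind the palindromic E-box known as the CLEAR element.

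The E-box was searched because it is the sequence feature that this gene family is known for. Of the 37 members, 33 matched a RefSeq promoter window (GRCm38.p6, 250 bases before to 50 after the start), and 10 of these held CACGTG (30.3%), against 12% of the 9533 tested genes that matched and 7.15% of all 32851 windows. The longer form TCACGTGA, of which CACGTG is the core, was in 4 members (12.1%), against 2.24% of tested genes and 0.974% of windows. Both are palindromes and so read alike on both strands. The sites with the longer form are shown because they carry the shared element of members described in the results, with the CACGTG core in capitals, each 5′ to 3′ on the strand of the gene and 26 bases long. A match is a description of the letters and not evidence of binding.
Ctsd, chr7:142387910-142387935, minus strand: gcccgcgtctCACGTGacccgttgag
Mcoln1, chr8:3500464-3500489, plus strand: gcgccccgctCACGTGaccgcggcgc
Cln3, chr7:126583342-126583367, minus strand: cgggtactgtCACGTGacccccaacc
Ctsa, chr2:164833751-164833776, plus strand: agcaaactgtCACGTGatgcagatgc
Ctsa, chr2:164833768-164833793, plus strand: tgcagatgctCACGTGaccagagcta

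The other members with a CACGTG core were Ctsl, Gaa, Glb1, Lamp1 (with 4 cores), Lgmn and Naglu. In the comparison of genotypes at 4 h that follows, Mcoln1 was called higher and Cln3 and Lgmn lower in cKO, and the other 7 were not called. Over all genes tested, 16.9% were called higher and 8.96% lower there. With stimulation, Cln3 was called higher in WT, and the other 9 were called lower in both genotypes on the TPM scale, on which most genes fell. On that scale 68.0% of all genes tested in WT and 67.3% in cKO were called lower. These counts are descriptions of 10 genes.

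Values are read coverage per gene, scaled here to sum to 1000000 in each library, which is how StringTie defines TPM and which takes out gene length and depth. The summed coverage lay between 14950347 and 17954882 per library, and log2 values of replicates correlated at 0.987 to 0.993. Nudt21 itself stood at 45.6 and 40.5 TPM in the WT libraries and 9.51 and 9.71 in the cKO libraries at 0 h, and at 35.1 and 38.5 against 8.20 and 6.41 at 4 h. Each of 8 genes known to be induced by IFNγ and LPS was higher in every 4 h library than in every 0 h library. All 8 macrophage markers checked were above 1 TPM in every library, but several differed between the genotypes. Adgre1 was at 1278 and 1545 TPM in WT against 830.04 and 806 in cKO at 0 h, and at 797 and 889.6 against 555 and 500.3 at 4 h. Csf1r (2457 and 2796 against 1577 and 1707 at 0 h) and Fcgr1 (161 and 151 against 79.2 and 75.4) were also lower in both cKO libraries at both times, and Cd68 was higher at both (2889 and 2711 against 4169 and 4136 at 0 h). The B cell, T and NK cell, mast cell and erythroid lists summed to at most 9.10 TPM. The neutrophil list summed to between 1126 and 1954 TPM, with WT at 1430 to 1543 and cKO at 1566 to 1954 at 0 h and overlapping ranges at 4 h. The dendritic cell list, at most 1.23 TPM at 0 h, stood at 79.1 to 130.6 in WT and 57.9 to 61.8 in cKO at 4 h, nearly all of it from Clec9a (77.2 and 126.1 against 60.4 and 55.99). Xcr1 was also lower in cKO, at no less than 1.12 in the WT and no more than 0.27 in the cKO libraries of 4 h, while Flt3 and Siglech stayed below 0.6 TPM and Zbtb46 was at 0.42 and 0.47 in WT and 0.95 and 1.33 in cKO. The fibroblast and endothelial lists summed to no more than 12.7. The part of the markers' differences and of such cells in the values that follow was not tested. In bulk RNA, fewer cells of a type and less RNA per cell cannot be told apart.

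All 37 members were expressed, and all passed the filter of a mean of 0.5 TPM, as did 12304 genes in all. Of the members, 3 ranked among the 6 highest genes of these cells by mean level. Ctsb, a cysteine protease, averaged 13469 TPM (rank 3), Psap, the precursor of the saposins that activate sphingolipid hydrolases, 12603 (rank 5), and Ctsd, the main aspartic protease of the lysosome, 11492 (rank 6). Ctss, which trims the invariant chain of MHC class II, followed at 7019 and Ctsc, which activates granule serine proteases, at 2151. The lowest 5 were Smpd1 (acid sphingomyelinase) at 16.9, Manba (β-mannosidase) at 31.7, Ctsk (a collagen-degrading cathepsin best known from osteoclasts) at 32.3, Idua (α-L-iduronidase) at 33.0 and Ids (iduronate 2-sulfatase) at 40.4.

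Together the 37 members took 8.40% and 8.90% of all coverage in the WT libraries at 0 h and 9.29% and 9.04% in the cKO libraries. At 4 h they took 3.45% and 4.02% in WT and 4.33% and 4.35% in cKO. The share was therefore lower in every 4 h library than in every 0 h library, and at each time both cKO libraries were above both WT libraries. At 0 h that order rested on Ctsb and Psap, neither of them called at 0 h: without this pair the members took 5.22% and 5.48% in WT and 5.21% and 5.02% in cKO, and at 4 h 2.25% and 2.54% in WT and 2.61% and 2.59% in cKO. The proteases made up most of it, with 5.31% to 5.70% of coverage at 0 h and 2.09% to 2.58% at 4 h. These shares are descriptions: with 2 libraries a group, an exact permutation test cannot go below p = 0.333.

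**Figure D1:**
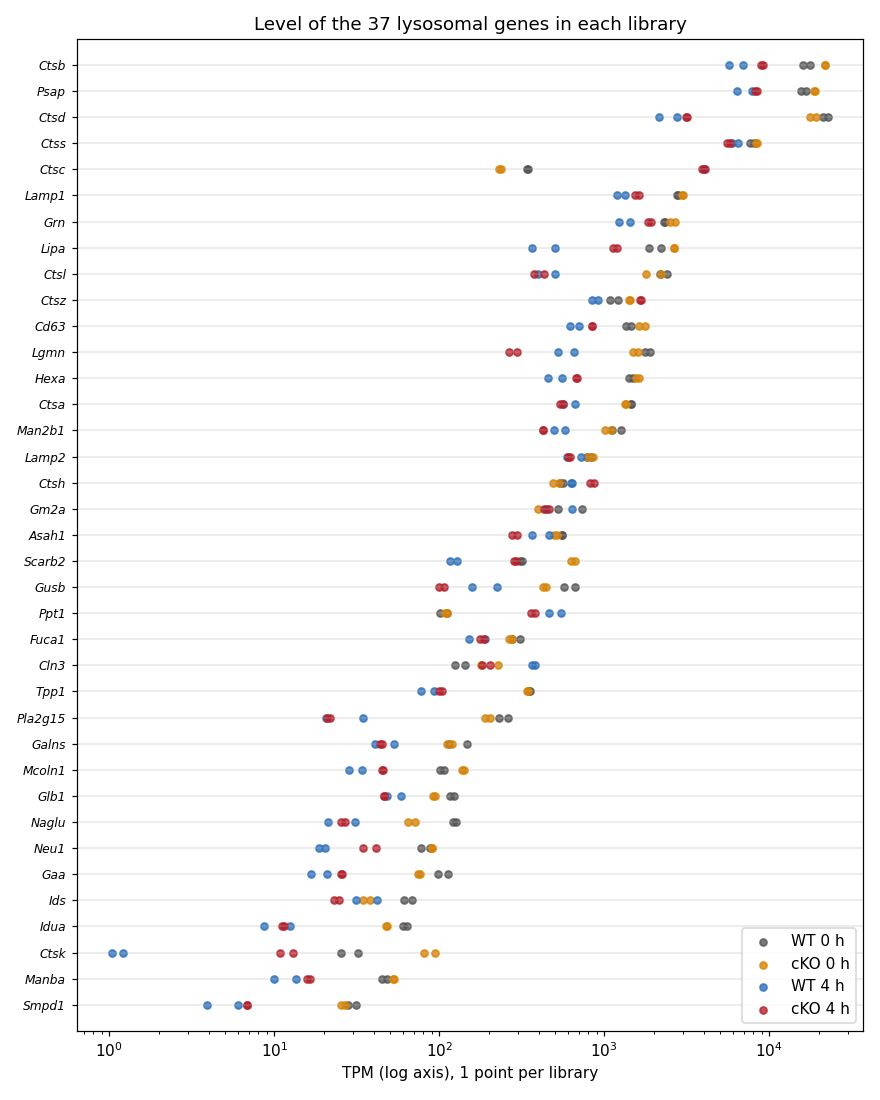
TPM (x axis, log scale) of each lysosomal gene (y axis, ordered by mean level), with 1 point per library and colours for the 4 groups. Ctsb, Psap and Ctsd lie at the top, most genes lie further left at 4 h than at 0 h, and Ctsc, Ppt1 and, in WT, Cln3 lie further right.

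To examine what loss of Nudt21 did to the lysosomal genes in unstimulated macrophages, cKO and WT were compared at 0 h. A gene was called at a Benjamini-Hochberg adjusted p under 0.05 over all 12304 genes, from limma fitted to all 8 libraries on log2(TPM + 0.1), and every fold change below is on that scale. Most of the 37 members did not pass: 2 were higher in cKO and 3 lower. Among all genes, 4.69% were called higher and 4.93% lower, so that 2 and 3 of 37 were close to the background. The median log2 fold change was -0.11 over the members and -0.02 over all genes.

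Ctsk rose most. It was at 25.3 and 32.3 TPM in the WT libraries and 93.6 and 80.8 in the cKO libraries at 0 h, so that both cKO libraries lay above both WT libraries (log2 fold change 1.60 ± 0.17 (SE), adjusted p = 0.00666). Scarb2 (chr5:92441314-92506833, GRCm38, minus strand), which encodes LIMP-2, the membrane receptor that carries β-glucocerebrosidase to the lysosome, was at 307 and 316 in WT and 632 and 666 in cKO (log2 fold change 1.06 ± 0.10 (SE), adjusted p = 0.00507). The rise was 2.08-fold, and the replicates of each genotype lay close together.

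Of the 3 members that fell at 0 h, both glycosaminoglycan-degrading enzymes fell by more than 1.5-fold. Naglu, the α-N-acetylglucosaminidase of heparan sulfate, was at 122 and 126 in WT and 71.6 and 64.5 in cKO (log2 fold change -0.86 ± 0.18 (SE), adjusted p = 0.0391). Ids was at 60.8 and 68.7 and 37.8 and 34.6 (log2 fold change -0.84 ± 0.16 (SE), adjusted p = 0.0314). Ctsc was at 344 and 339 and 231 and 237 (log2 fold change -0.55 ± 0.09 (SE), adjusted p = 0.0183). In all 3, both cKO libraries were below both WT libraries. Cln3, a lysosomal membrane protein, was just outside the threshold, at 144 and 125 in WT and 179 and 227 in cKO (log2 fold change 0.59 ± 0.15 (SE), adjusted p = 0.0626).

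By role, the glycosidases and sulfatases had 2 of 12 members called lower, the proteases 1 of 11 higher and 1 lower, and the membrane proteins 1 of 6 higher. The 7 lipid hydrolases and activators had log2 fold changes between -0.55 (Gm2a) and 0.38 (Lipa), and limma called 0 of them, with Gm2a alone under an unadjusted p of 0.05. The 0 h calls rest on few libraries: without cKO replicate 4 at 0 h all 5 were lost, and without cKO replicate 3 at 0 h all but that of Scarb2. The calls of Ctsc, Ids and Naglu were each lost without either 0 h library of WT or any 1 library of cKO. In each of these fits fewer of all genes were called too. Leaving out either WT library at 4 h, whose spread enters the same fit, kept the 5 calls and added others, among the members and among all genes.

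In the same fit, more of the lysosomal genes were called between the genotypes after IFNγ and LPS than at 0 h. Of the 37 members, 10 were higher and 6 lower in cKO at 4 h, with 16.9% of all genes called higher and 8.96% lower. The members' shares, 10 and 6 of 37, were above the background in both directions, which is given as a description. This did not hold by every rule. By the rule of the study's methods, more than 1.5-fold and p below 0.05 before adjustment, 5 members were higher and 4 lower against 14.9% and 8.43% of all genes, and the higher share (13.5%) was below the background. With unmoderated variances 2 members were lower (5.41%) against 6.62% of all genes. The background also moved with scaling. After median-centring 9 members were higher and 8 lower (14.1% and 17.1% of all genes), after quantile normalization 10 and 6 (13.1% and 13.3%). With only the 4 libraries of a time, 5 members were higher and 2 lower at 4 h (5.71% and 2.27% of all genes). At 0 h that setting gave 2 higher and 3 lower (4.14% and 4.59%). The median log2 fold change was 0.13 over the members and 0.08 over all genes. Of the 16 calls by adjusted p, 6 (Ctsk, Lipa, Scarb2, Neu1, Ctsz and Lgmn) held in each of the 17 alternative analyses of this comparison, among them leaving out each library in turn.

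**Figure D2:**
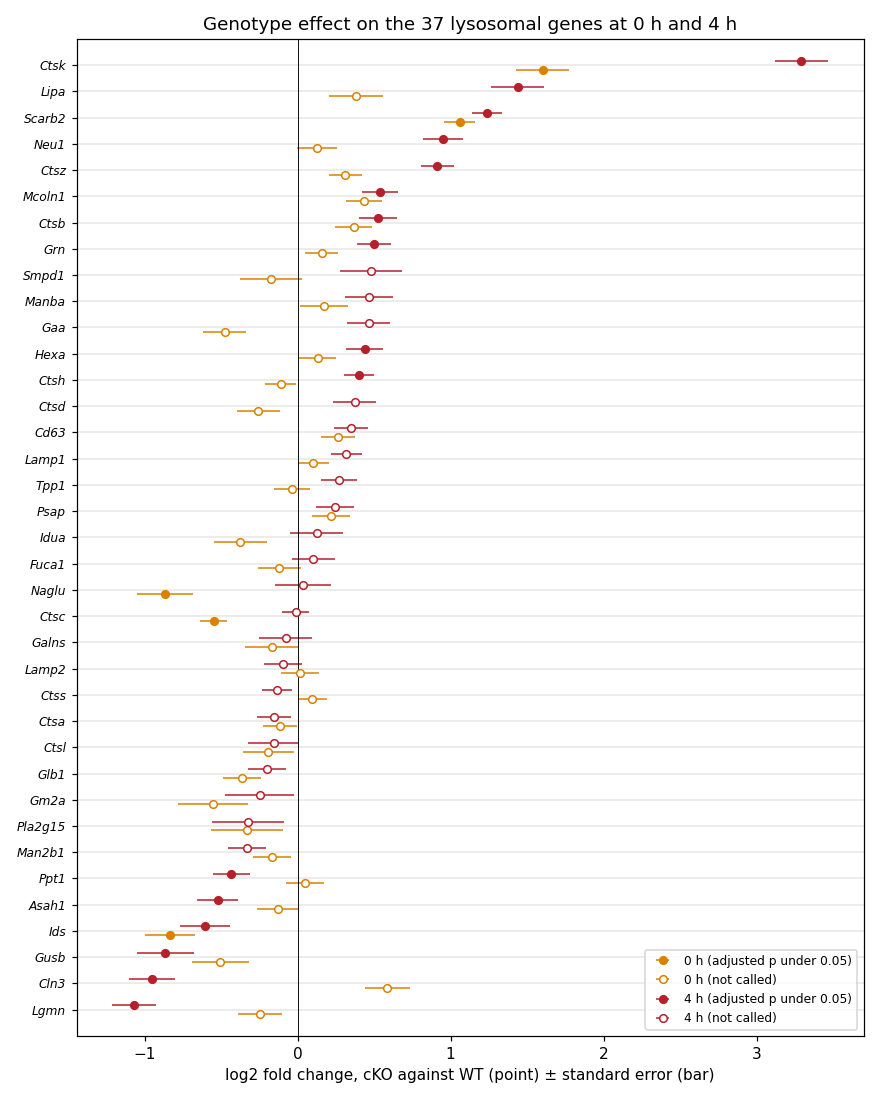
log2 fold change of cKO against WT (x axis, points, with the standard error of the fit as bars) for each lysosomal gene (y axis, ordered by the 4 h value) at 0 h and 4 h. Filled points passed an adjusted p of 0.05. Ctsk and Scarb2 are filled on the right and Ids on the left at both times, and 16 genes are filled at 4 h against 5 at 0 h.

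Among the proteases, 4 of 11 were higher and 1 lower. Ctsk (chr3:95499256-95509362, GRCm38, plus strand) had the largest difference of all members. It was very low in stimulated WT cells, at 1.04 and 1.20 TPM, and at 13.0 and 10.8 in cKO, a 9.80-fold difference (log2 fold change 3.29 ± 0.17 (SE), adjusted p = 0.000516). The unscaled coverage behind the WT values was 16.3 and 17.99 per base, so that the fold does not rest on a few reads. Ctss, the next member along the same strand (chr3:95526786-95556403), was at 5982 and 6471 in WT and 5778 and 5543 in cKO and was not called (log2 fold change -0.14 ± 0.10 (SE), adjusted p = 0.34). Ctsz (chr2:174427493-174439039, minus strand), the carboxypeptidase cathepsin X, was at 838 and 918 in WT and 1639 and 1667 in cKO (log2 fold change 0.91 ± 0.11 (SE), adjusted p = 0.00368). Smaller rises were called for Ctsb, at 5709.7 and 6932 in WT and 8962 and 9155 in cKO (log2 fold change 0.53 ± 0.12 (SE), adjusted p = 0.0274), and for the aminopeptidase Ctsh, at 633 and 639.8 and 818 and 865 (log2 fold change 0.40 ± 0.10 (SE), adjusted p = 0.0311).

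Lgmn (chr12:102394084-102439813, minus strand) moved the other way. It encodes legumain, the asparaginyl endopeptidase that processes several cathepsins to their mature form, and was at 521 and 657 in WT and 295 and 265 in cKO, 2.09-fold lower (log2 fold change -1.07 ± 0.14 (SE), adjusted p = 0.00558). The remaining 6 proteases, Ctsa, Ctsc, Ctsd, Ctsl, Ctss and Tpp1, were not called, with log2 fold changes between -0.16 and 0.37.

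The glycosidases were split. Neu1 (chr17:34931253-34935953, plus strand), the lysosomal sialidase, was at 20.3 and 18.7 in WT and 34.5 and 41.4 in cKO (log2 fold change 0.95 ± 0.13 (SE), adjusted p = 0.00601). Hexa, the α-subunit of β-hexosaminidase, was at 458 and 551 and 673 and 688 (log2 fold change 0.44 ± 0.12 (SE), adjusted p = 0.0427). Gusb (β-glucuronidase) was lower, at 157 and 224 in WT and 107 and 99.2 in cKO (log2 fold change -0.86 ± 0.18 (SE), adjusted p = 0.0206), and so was Ids, at 31.3 and 42.0 and 24.7 and 22.9 (log2 fold change -0.61 ± 0.16 (SE), adjusted p = 0.041). The other 8 enzymes of this group were not called, Gaa (acid α-glucosidase) being the nearest at 16.6 and 20.7 in WT and 25.9 and 25.4 in cKO (log2 fold change 0.46 ± 0.14 (SE), adjusted p = 0.0544). Naglu, lower in cKO at 0 h, was at 21.0 and 30.6 and 25.3 and 26.8 at 4 h, with overlapping groups.

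Among the lipid hydrolases, Lipa differed most. Lipa (chr19:34492318-34527474, minus strand) encodes lysosomal acid lipase, which frees cholesterol and fatty acids from cholesteryl esters and triglycerides. It was at 364 and 501 in WT and 1127 and 1189.7 in cKO, 2.71-fold higher (log2 fold change 1.44 ± 0.17 (SE), adjusted p = 0.00396). Asah1 (acid ceramidase) was lower, at 366 and 462 and 298 and 275 (log2 fold change -0.52 ± 0.14 (SE), adjusted p = 0.0359), as was Ppt1 (a palmitoyl-protein thioesterase), at 459 and 547 and 382 and 361 (log2 fold change -0.43 ± 0.12 (SE), adjusted p = 0.0456). Both of these falls were under 1.5-fold, and Gm2a, Pla2g15, Psap and Smpd1 were not called.

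Of the 6 membrane proteins, 2 were higher and 1 lower at 4 h. Scarb2 was at 117 and 129 in WT and 285 and 293 in cKO (log2 fold change 1.24 ± 0.10 (SE), adjusted p = 0.00161), against 1.06 at 0 h. Mcoln1, the TRPML1 calcium channel through which lysosomes signal to TFEB, was at 28.2 and 34.0 and 45.3 and 44.7 (log2 fold change 0.54 ± 0.12 (SE), adjusted p = 0.0226). The structural proteins Lamp1, Lamp2 and Cd63 were not called, with log2 fold changes between -0.10 and 0.35. Grn, the precursor of lysosomal granulins, was at 1236 and 1430.1 in WT and 1843 and 1912 in cKO (log2 fold change 0.50 ± 0.11 (SE), adjusted p = 0.0227).

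Cln3 (chr7:126571207-126585817, minus strand) fell. It was at 366 and 378 TPM in WT and 203 and 182 in cKO (log2 fold change -0.95 ± 0.15 (SE), adjusted p = 0.00833), having been above WT in both cKO libraries at 0 h. Exons of Cln3 share 442 bases, 7.65% of its annotated exon sequence, with Apobr on the opposite strand, and the library kit is not a strand-marking one. Apobr was at 40.7 and 48.4 TPM in the WT and 59.0 and 64.6 in the cKO libraries of 0 h, and at 142 and 150.3 in the WT and 79.9 and 62.7 in the cKO libraries of 4 h. As for Cln3, the cKO libraries were above WT at 0 h and below WT at 4 h. The share of Cln3 coverage that comes from Apobr was not tested. Of the other members called at 4 h, Ctsb shares 12.8% of its exon bases with Fdft1, Hexa 12.8% with Tmem202, Ppt1 3.51% with Cap1, Grn 1.96% with Fam171a2 and Ctsz 0.694% with Nelfcd, each on the opposite strand. Among members not called at 4 h, Ctsd shares 34.4% with Gm49369 on the same strand and Ctsl 26.8% with Gm47123 on the opposite strand, neither of which was analysed here. Ctsa shares 10.5% with Pltp on the opposite strand, which was at 1275 and 1184 TPM in WT against 715 and 697 in cKO at 0 h and at 108 to 159.9 in the libraries of 4 h.

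**Figure D3:**
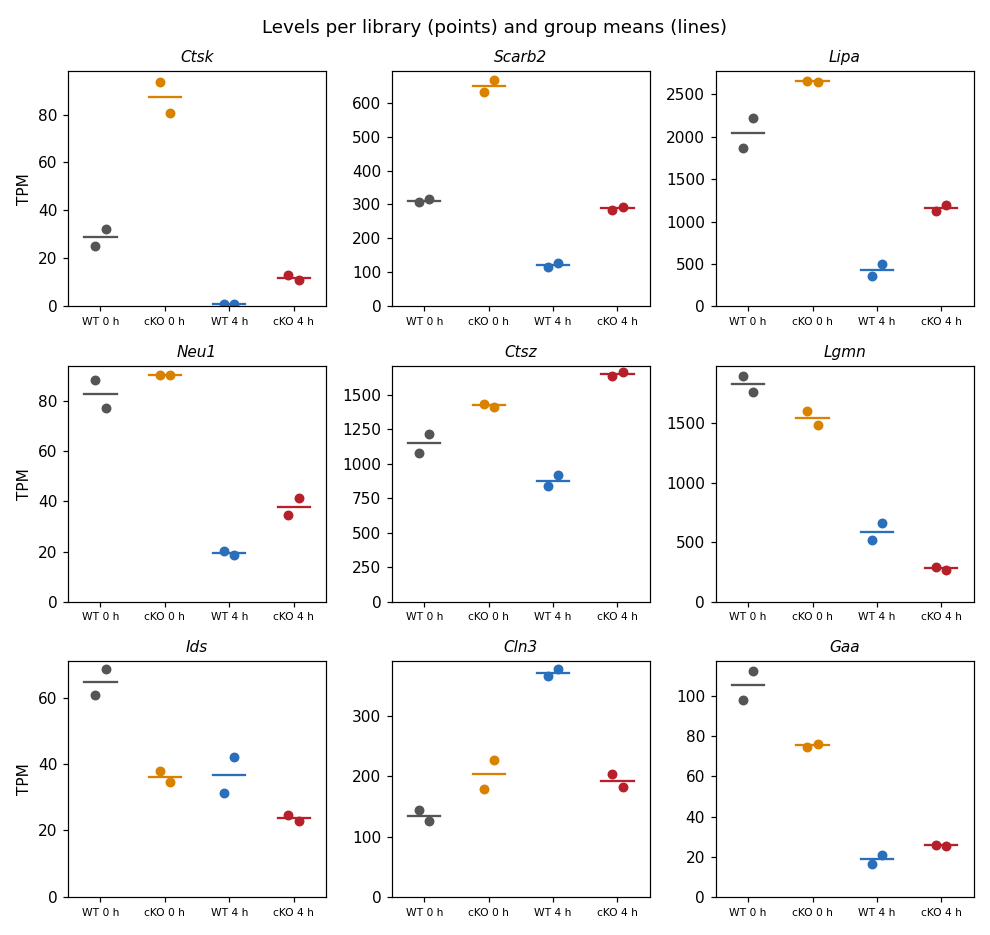
TPM (y axis, linear from 0) in each library (points) and the mean of each group (lines) for 9 lysosomal genes named in the text. Ctsk in stimulated WT lies near 0, Scarb2, Lipa, Neu1 and Ctsz lie higher and Lgmn and Ids lower in cKO at 4 h, and Cln3 and Gaa change sides between 0 h and 4 h.

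The 2 libraries of stimulated WT differed more than those of the other groups. The median absolute log2 difference between replicates over the members was 0.28 in WT at 4 h, against 0.06 to 0.11 in the other groups. WT replicate 1 was below replicate 2 in 35 of the 37 members and in 76.3% of all genes tested. Without WT replicate 1 at 4 h, 7 members were called higher and 7 lower in cKO (12.7% and 11.9% of all genes), with Ctsb, Ctsh and Hexa lost. Without WT replicate 2, 19 were called higher and 3 lower (23.1% and 6.65% of all genes), with Asah1, Ids and Ppt1 lost. Leaving out either cKO library at 0 h left 5 higher and 3 lower (11.5% to 11.6% and 5.79% to 5.83% of all genes). Leaving out cKO replicate 3 or 4 at 4 h left 5 higher (6.92% or 4.52% of all genes) and 2 or 1 lower (4.32% or 1.93%), and leaving out either WT library at 0 h left 9 higher and 3 lower (15.8% to 15.9% and 7.92% to 7.96%). The calls of Ctsb, Ctsh, Grn, Hexa, Mcoln1, Asah1, Ids and Ppt1 were each lost when any 1 cKO library was left out, Gusb when a cKO library at 4 h was, and Cln3 without cKO replicate 4 at 4 h. Asah1, Hexa, Ids and Ppt1 were also lost without either WT library at 0 h.

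The calls at 0 h and 4 h shared 3 members. Ctsk and Scarb2 were higher and Ids lower at both times. Of the 2 others called at 0 h, neither Naglu nor Ctsc was called at 4 h, and 13 members were called at 4 h alone. A call at 1 time alone does not show that the effects differ, so the change of that effect from 0 h to 4 h was tested itself. It passed for 3 members, 2 with a more positive effect at 4 h and 1 with a more negative one, where 4.41% and 1.54% of all genes passed in these directions. The effect on Ctsk was larger at 4 h (log2 difference 1.69 ± 0.24 (SE), adjusted p = 0.024). Gaa moved from 98.3 and 113 in WT against 74.8 and 76.4 for cKO at 0 h to the higher side at 4 h (log2 difference 0.94 ± 0.20 (SE), adjusted p = 0.0484). Cln3 went from the higher to the lower side (log2 difference -1.54 ± 0.21 (SE), adjusted p = 0.0213). The part of the overlapping Apobr, given above, in this difference was not tested. The next members missed the threshold, Neu1 at 0.82 ± 0.19 (adjusted p = 0.057), Lipa at 1.06 ± 0.25 (adjusted p = 0.0594), Ctsc at 0.54 ± 0.13 (adjusted p = 0.0604) and Lgmn at -0.82 ± 0.20 (adjusted p = 0.0682). With unmoderated variances the 3 calls of Ctsk, Gaa and Cln3 were lost, and Ctsk was lost after quantile normalization and Gaa without a filter. These calls were fragile: all 3 were lost without cKO replicate 3 or 4 at 0 h, without cKO replicate 3 or 4 at 4 h or without WT replicate 2 at 0 h, Cln3 and Gaa were lost without WT replicate 1 at 0 h, and Gaa was lost without WT replicate 1 at 4 h. Without WT replicate 2 at 4 h, 8 members passed on the positive side, where 10.6% of all genes did.

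Ctsk was looked at beside osteoclast markers, since it is a marker of that cell type and M-CSF cultures can hold osteoclast precursors. The list of 6 (Calcr, Ocstamp, Dcstamp, Oscar, Acp5 and Mmp9) summed to 49.1 to 65.2 TPM in WT and 59.6 to 64.4 in cKO at 0 h, and to 57.6 to 74.2 in WT and 105.4 to 120.5 in cKO at 4 h. Acp5, a phosphatase that macrophages also express, overlapped at 0 h (31.7 and 40.4 in WT, 38.6 and 33.8 in cKO) and was at 33.8 and 36.7 in the WT and 81.5 and 70.8 in the cKO libraries of 4 h. Mmp9 was higher in both cKO libraries than in WT at both times, at 3.73 and 5.37 in WT against 12.4 and 10.5 at 0 h and 0.33 and 1.07 against 3.56 and 2.96 at 4 h. Ocstamp overlapped at 0 h (1.30 and 1.59 in WT against 1.44 and 1.37) and was at 15.7 and 20.6 against 22.3 and 21.1 at 4 h. Calcr and Oscar, at most 0.142 TPM in any library, were near 0 throughout, and Dcstamp did not separate the genotypes at either time. The part of such cells in the Ctsk difference was not tested.

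On the TPM scale, where most genes fell, nearly every member was called with stimulation. In WT, 3 members were higher and 31 lower at 4 h than at 0 h, and in cKO also 3 higher and 31 lower. These counts must be read against all genes: in WT 16.1% were called higher and 68.0% lower, and in cKO 16.6% and 67.3%, and the median gene fell on the TPM scale by 1.07 in WT and 0.97 in cKO (log2). The members' medians were -1.35 and -1.22. When each library was centred on its median gene instead, 11 members were higher and 17 lower in WT (39.7% and 35.0% of all genes) and 11 higher and 18 lower in cKO (37.4% and 35.5% of all genes). The direction was therefore taken as settled only for members called the same way on both scalings. These were 15 lower (40.5%) and 2 higher (5.41%) in both genotypes, where 29.5% and 14.1% of all genes tested met the same rule.

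The 2 that rose on both scalings in both genotypes were Ctsc and Ppt1. Ctsc went from 344 and 339 TPM to 4031 and 4028 in WT (log2 fold change 3.56 ± 0.09 (SE), adjusted p = 1.04e-06) and from 231 and 237 to 4055 and 3939 in cKO (log2 fold change 4.10 ± 0.09 (SE), adjusted p = 7.44e-07). The 4 stimulated libraries were almost level, so that the lower Ctsc of cKO was seen at 0 h only, although the difference of the effects missed the threshold (0.54 ± 0.13, adjusted p = 0.0604). Ppt1 went from 111 and 102 to 459 and 547 in WT (log2 fold change 2.24 ± 0.12 (SE), adjusted p = 1.11e-05) and from 108 and 112 to 382 and 361 in cKO (log2 fold change 1.76 ± 0.12 (SE), adjusted p = 3.14e-05).

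Cln3 rose in WT (log2 fold change 1.47 ± 0.15 (SE), adjusted p = 0.000138). In cKO it was not called on the TPM scale, where its groups overlapped (log2 fold change -0.07 ± 0.15). Apobr, whose exons overlap those of Cln3, went from 40.7 and 48.4 to 142 and 150.3 TPM in WT. In cKO Apobr went from 59.0 and 64.6 to 79.9 and 62.7 TPM, and its part in the change of Cln3 was not tested. Ctsh rose in cKO (log2 fold change 0.72 ± 0.10 (SE), adjusted p = 0.000604), from 534 and 489 to 818 and 865, and had a log2 fold change of 0.20 ± 0.10 in WT that did not pass. After median-centring Cln3 and Ctsh were called higher in both genotypes.

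The 15 members that fell on both scalings in both genotypes were the proteases Ctsb, Ctsd, Ctsk, Ctsl, Lgmn and Tpp1, the glycosidases and sulfatases Gaa, Gusb, Hexa, Idua, Manba and Naglu, the lipid enzymes Pla2g15 and Smpd1, and Mcoln1. Ctsk fell most in WT, from 25.3 and 32.3 to 1.04 and 1.20 (log2 fold change -4.55 ± 0.17 (SE), adjusted p = 3.38e-06), and by less in cKO (log2 fold change -2.86 ± 0.17 (SE), adjusted p = 1.82e-05). Pla2g15, the lysosomal phospholipase A2, fell from 232 and 263 to 20.6 and 34.7 in WT and from 190.0 and 203 to 21.8 and 20.9 in cKO, with nearly equal log2 fold changes of -3.20 and -3.19 (SE 0.24). Ctsd, the main aspartic protease, fell from 21286 and 22629.6 to 2154 and 2761 in WT (log2 fold change -3.17 ± 0.14 (SE), adjusted p = 5.38e-06) and from 19082 and 17709.9 to 3185 and 3129 in cKO (log2 fold change -2.54 ± 0.14 (SE), adjusted p = 1.33e-05).

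The others of the 15 fell by log2 values from -1.42 (Ctsb) to -2.59 (Smpd1) in WT and from -1.22 (Hexa) to -2.47 (Lgmn) in cKO. Idua and Gaa, which degrade glycosaminoglycans and glycogen, had -2.58 and -2.50 in WT and -2.08 and -1.56 in cKO. Ctsl, a cysteine protease of broad specificity, had -2.35 and -2.32. Neu1 and Lipa were lower on both scalings in WT (-2.08 and -2.25 on the TPM scale), and in cKO their falls of -1.26 and -1.19 did not pass after centring. Ctsa, Galns and Man2b1 were lower on both scalings in cKO but only on the TPM scale in WT.

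Several members fell on the TPM scale about as much as the median gene or less. Lamp1, at 2758 and 2787 before and 1197 and 1338 after stimulation in WT, had a log2 fold change of -1.13 ± 0.10, close to the median of all genes, and so had Cd63 (-1.09), Glb1 (-1.17), Psap (-1.20) and Scarb2 (-1.35). Ctss, Ctsz, Fuca1, Gm2a, Grn and Lamp2 fell less than the median gene or did not fall, and were called higher in both genotypes once the libraries were centred. Gm2a, the GM2 ganglioside activator, was called in none of the 5 comparisons on the TPM scale, with log2 fold changes between -0.55 and 0.31.

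**Figure D4:**
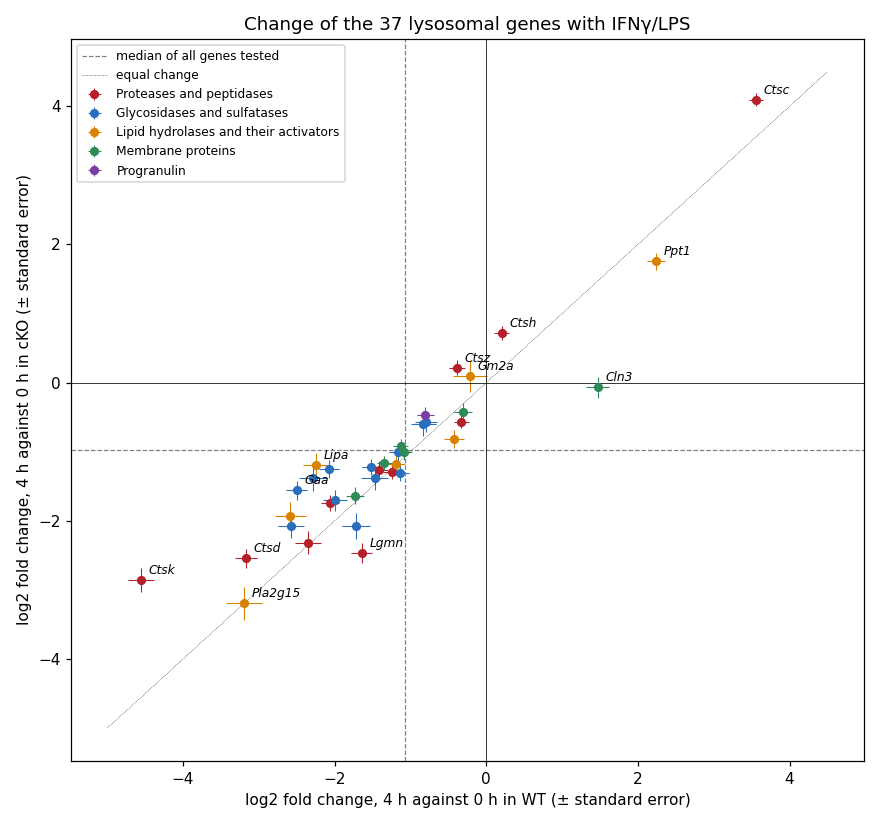
log2 fold change with IFNγ/LPS in WT (x axis) and in cKO (y axis) for each lysosomal gene, coloured by role, with standard errors of the fit as bars. Dashed lines mark the median of all genes (-1.07 in WT, -0.97 in cKO), the dotted line marks equal change. Ctsc and Ppt1 lie far up in both genotypes, Cln3 in WT alone, and Ctsk lies furthest left.

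A wider list of 78 other lysosomal genes (further enzymes, membrane and transport proteins, sorting factors, protease inhibitors and regulators) gave the surroundings of the 37. Of these, 74 were tested. At 0 h, 5 were higher and 3 lower in cKO, where 4.69% and 4.93% of all genes were, so that these counts were close to the background. The 5 were Mcoln3 (1.17), Hyal1 (1.10), Gla (0.95), Tfec (0.60) and Cd68 (0.57), and the 3 were Acp2 (-1.003), Nagpa (-0.71) and Mitf (-0.55), all log2 fold changes with standard errors of 0.09 to 0.16. At 4 h, 22 were higher and 6 lower in cKO. The largest rises were Sort1 (1.94 ± 0.17), which encodes a sorting receptor for lysosomal proteins, Gla (1.42 ± 0.13), which encodes α-galactosidase A, Mcoln3 (1.40 ± 0.12), a relative of Mcoln1, and Acp5 (1.11 ± 0.16). The largest falls were smaller, Ctse (-0.87) and Cpq (-0.66).

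Among the 32 further enzymes tested, 9 were higher and 4 lower at 4 h, among the 22 membrane and transport proteins 8 were higher and 0 lower, and among the 10 sorting factors 3 were higher and 1 lower, against the same 16.9% and 8.96% of all genes. Of the 5 protease inhibitors tested, limma called 0 at 4 h, with 4 under an unadjusted p of 0.05. The wider list had a median log2 fold change of 0.23. The change of the cKO effect from 0 h to 4 h passed for Sort1 (1.43), Acp5 (1.09), Sgsh (0.97) and Cln8 (0.87) on the positive side and for Ctse (-0.98) on the negative, 4 and 1 of 74 against 4.41% and 1.54% of all genes, which is close to the background. Over all genes, these shares were 0.154% to 0.590% and 0.0982% to 0.315% when 1 library of cKO was left out.

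The regulators of the family did not move together. Tfeb was at 74.5 and 71.1 TPM in WT and 76.3 and 78.1 in the cKO libraries at 0 h, and at 2.01 and 3.13 and 3.95 and 4.64 at 4 h. Its log2 change with stimulation was -4.80 ± 0.21 in WT and -4.14 ± 0.21 in cKO, well past the median gene. At 4 h the cKO libraries were above WT (log2 fold change 0.75 ± 0.21 (SE), adjusted p = 0.0443). This call lay just under the threshold at a low level. Neither it nor the other genotype calls of the wider list were followed through the alternative analyses. Mitf was lower in cKO at both times (-0.55 ± 0.09 at 0 h, -0.32 ± 0.09 at 4 h) and Tfec higher (0.60 ± 0.11 and 0.48 ± 0.11), while Tfe3 had -0.37 ± 0.16 and -0.06 ± 0.16 and was not called. Mitf and Tfec rose with stimulation in both genotypes on both scalings. Tfe3 had log2 fold changes of -1.46 and -1.14, near the median gene, and after centring it was called lower in WT (-0.35) and not in cKO (-0.16).

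Over the wider list, 13 genes were higher and 53 lower with stimulation in WT, and 14 higher and 52 lower in cKO, on the TPM scale and against the same shares of all genes as above. Sgsh (heparan N-sulfatase) fell most in both genotypes (-5.56 in WT, -4.59 in cKO), and Tfeb, Tpcn1, Mcoln3, Sort1 in WT and Hyal1 in cKO were next. Cst7, which encodes cystatin F, an inhibitor of cathepsin C, rose most (5.80 ± 0.21 in WT, 6.26 ± 0.21 in cKO), from 1.64 and 1.63 to 93.6 and 100.02 TPM in WT and from 1.23 and 2.02 to 125 and 133 in cKO. Plbd1, Naaa, Rnaset2a and Rnaset2b rose by log2 values of 2.31 to 3.76 in WT and 2.39 to 3.73 in cKO. Rnaset2a and Rnaset2b are near-identical copies, so that their reads can be split between them in an uncertain way.

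The 3′ untranslated regions of the members were also compared with those of other genes. CFIm25, the product of Nudt21, binds UGUA upstream of polyadenylation sites, and the longest annotated region of each gene (GENCODE M21) was searched for these letters. The members had a median of 968 bases and 4 UGUA, against 1139.5 bases and 6 UGUA over the tested genes with such a region. Scarb2 had 2935 bases and 16 UGUA, Ids 3135 bases and 28, Ctsb 3597 bases and 19, and Ctsl, which was called in neither genotype comparison, 4764 bases and 23. Across the 37 members, Spearman's rho of the UGUA count with the genotype effect was 0.0089 at 0 h and -0.24 at 4 h, and that of the region's length was -0.16 and -0.25. These are descriptions over genes that share the same libraries. Gene coverage does not show which polyadenylation site was used.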

How the data were processed

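RNA-seq of 8 BMDM libraries was analysed, 2 in each of 4 groups. The authors aligned paired-end reads with HISAT2 2.2.1 to mm10/GRCm38 and quantified RefSeq genes with StringTie 2.1.7, per the labels and the study's methods. The deposited values are a coverage signal per gene and library, 1 table for each time, whose unit the tables do not name. Multiplied by the annotated length of single-transcript genes, 33.4% of 5811 low values were whole within 0.05 bases, against 11.0% with a wrong length, which was taken to show coverage. No count test was run, since coverage is not a count. The authors' own log2 fold changes, p-values, FDR and classes stand in the same tables and were not used, and 0 columns of per-sample values were left unused.

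Coverage was scaled to sum to 1000000 in each library (TPM), and genes with a mean of at least 0.5 were kept. limma 3.58.1 (R 4.3.3, empirical Bayes) was fitted to log2(TPM + 0.1) over all 8 libraries with 4 groups (4 residual degrees of freedom), giving both genotype comparisons, both stimulation comparisons and the difference of effects, two-sided, with Benjamini-Hochberg adjustment. The fit was tested on simulated data. Replicates are libraries of 2 pooled mice each, and p-values measure the spread between them. The library numbers were not shown to pair the times, since the labels do not say that a number marks a shared culture. Positions are from GENCODE M21 (37 of 37 members matched by symbol), promoters from RefSeq.

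The members and the gene lists were chosen with earlier results of these data known. Named in a comparison were the members called in it, by size (at most 30), the 5 highest and 5 lowest in level, up to 5 called genes of the wider list in each direction, and members called nowhere. Some genes of the wider list are counted but not reported here by name. Members just outside a threshold, the promoter, overlap and 3′ region checks, and the neighbour of Ctsk were added after values were seen.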

Additional observations from a re-analysis of the deposited data

Results flagged for a closer look

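The effect of the genotype differed between 0 h and 4 h by a test of the difference itself for 3 of the 37 lysosomal genes, 2 on the positive and 1 on the negative side, against 4.41% and 1.54% of all genes. On the log2 scale the cKO effect was higher at 4 h by 1.69 for Ctsk (3.29 at 4 h, 1.60 at 0 h) and by 0.94 for Gaa (0.46 at 4 h, -0.48 at 0 h), and the difference was -1.54 for Cln3 (-0.95 at 4 h, 0.59 at 0 h). The adjusted p-values, from limma, were 0.024, 0.0484 and 0.0213. With unmoderated variances all 3 calls were lost, and Ctsk was lost after quantile normalization and Gaa without a filter. The part of Apobr, whose exons overlap those of Cln3, in the Cln3 value was not tested. All 3 calls were lost when either 0 h or either 4 h library of cKO was left out, and when WT replicate 2 at 0 h was.

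For 5 more genes both cKO libraries lay on one side of both WT libraries at 0 h and on the other side at 4 h, while the test of the difference did not pass. This pattern was seen in 8.65% of all genes tested, and, with the genes that passed that test, in 7 of the 37 members (18.9%) and 11.9% of all genes. The log2 differences of the genotype effect between the times were 0.63 for Ctsd, 0.51 for Ctsh, 0.65 for Smpd1, 0.31 for Tpp1 and -0.23 for Ctss. Their adjusted p-values, from limma, were 0.117, 0.0854, 0.215, 0.296 and 0.341. With 2 libraries in each group, no library could be called an outlier.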

How the results depend on the processing

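Coverage has no stated sampling error, and 2 libraries a group limit what can be called. Counts of members called depended on the setting, and no cause of a change was tested. At 0 h, 4 members were higher in cKO on the unscaled deposited values, after quantile normalization, with a pseudocount of 1 and with an intensity trend (6.94% to 9.07% of all genes). The lower count was 5 after median-centring and with a trend (6.54% and 7.40% of all genes), 6 after quantile normalization (9.43%) and 1 without a filter and with unmoderated variances (2.86% and 2.75%). Leaving out each library in turn gave 0 to 4 higher (0.475% to 7.07% of all genes) and 0 to 7 lower (0.368% to 7.61%). At 4 h, the unscaled values gave 18 members higher and 3 lower (31.2% and 5.57% of all genes), and the median gene was higher in cKO by 0.28 (log2). With only the 4 libraries of that time, 5 were higher and 2 lower (5.71% and 2.27% of all genes). The rule of the study's methods gave 5 higher (14.9%). Lower counts were 3 without a filter (4.44%) and 2 with unmoderated variances (6.62%), and leaving out each library gave 5 to 19 higher (4.52% to 23.1%) and 1 to 7 lower (1.93% to 11.9%). The 6 calls of Ctsk, Lipa, Scarb2, Neu1, Ctsz and Lgmn at 4 h passed in every one of the 17 alternatives run for them.

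For stimulation, median-centring gave 11 higher and 17 lower in WT (39.7% and 35.0% of all genes) and 11 higher and 18 lower in cKO (37.4% and 35.5%). The other alternatives kept the counts of members within 1.5 times, but the shares of all genes moved more. Quantile normalization gave 3 members higher and 31 lower in WT, against 29.4% and 42.3% of all genes. In cKO it gave 3 higher and 30 lower, against 28% and 42.8%. Of called members, centring turned the sign in WT for Asah1 (0.69), Cd63 (0.025), Ctss (0.78), Ctsz (0.73), Fuca1 (0.32), Grn (0.31) and Ids (0.28), and in cKO for Asah1 (0.17), Ctss (0.42), Fuca1 (0.41), Grn (0.52), Ids (0.38), Lamp1 (0.066) and Lamp2 (0.56). Of members not called before centring, it turned Lamp2 (0.81) and Gm2a (0.90) in WT and Cln3 (0.91) in cKO. Among called members, quantile normalization turned Ids in cKO (0.068).

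For the difference of effects, members passing on the positive side numbered 5 on the unscaled values (6.49% of all genes), 7 with a pseudocount of 1 (7.77%) and by the study's rule (12.99%), 1 without a filter (1.87%) and with unmoderated variances (2.31%), 4 with a minimum mean of 1 (5.93%) and 8 with a trend (7.84%). With unmoderated variances the calls of Ctsk, Gaa and Cln3 were all lost, so the 1 member counted on the positive side was another. Ctsk was also lost after quantile normalization and Gaa without a filter. On the negative side members passing numbered 3 after centring (3.49%), 2 with a pseudocount of 1 and with a trend (3.43% each) and by the study's rule (5.46%), and 0 with unmoderated variances (0.967%). Leaving out each library gave 0 to 8 (0.154% to 10.6%) and 0 to 2 (0.0982% to 2.33%).

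The library numbers recur at both times. Deviations of same-numbered libraries from their group means correlated at 0.12 in WT and 0.09 in cKO across genes, so the pairing was not established. With the replicate block, 0 members passed the difference of effects on either side (2 of all genes on the positive and 4 on the negative). With stimulation 31 were called lower in each genotype and 3 higher. Over all genes these shares were 67.5% and 15.9% in WT and 66.6% and 16.4% in cKO.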
